A study of Homo sapiens with 6 samples.

Results

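The genes described here encode 3 Notch receptors (NOTCH1, NOTCH2, NOTCH3), 2 ligands of the Jagged type (JAG1, JAG2), 3 transcriptional repressors of the HES and HEY family (HES1, HES4, HEY1), the DNA-binding factor RBPJ and its coactivator MAML1. They were chosen by symbol, and all 10 are among the 17114 gene symbols listed for each library. RNA was sequenced from 786-O, a human kidney cancer line of the clear cell type that lacks functional VHL. There were 3 libraries after exposure to a vehicle (group Vehicle) and 3 after exposure to XMU_MP_1, known as an inhibitor of the kinases MST1 and MST2 of the Hippo pathway. The labels call the exposure a transfection, and not given in the sources used here are its dose and its time. Both groups are 1 cell line in monoculture, so values describe these cells only, and no label ties a replicate to a culture of its own. P-values are therefore measures of library spread only, and that spread may be technical.

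Notch signalling runs between touching cells. A Jagged or Delta ligand on one cell pulls on a Notch receptor on its neighbour, the receptor is cut by ADAM proteases and then by γ-secretase, and the freed intracellular domain enters the nucleus. There it joins RBPJ, which otherwise holds corepressors on its sites, and recruits a Mastermind protein such as MAML1 to switch on genes that include HES and HEY repressors. In the kidney the pathway is best known for its part in nephron patterning, and the JAG1 and NOTCH2 genes are both mutated in Alagille syndrome. The study concerns YAP, TEAD4 and NF-κB in the same cells, and the comparison of its 2 groups asks what the inhibitor did to transcript levels.

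The promoters of HES1 and HES4 are shown because HES4 rose and HES1 did not pass the test, and both have a promoter window with an RBPJ motif. Windows run from 250 bases before to 50 after the RefSeq start on GRCh38.p14, and 9 of the 10 members matched one, all but HEY1. Lower case is the window on the strand of the gene, and capitals mark the core RBPJ motif TGGGAA, searched on both strands. The HES1 window is chr3:194135898-194136197 on the plus strand and the HES4 window is chr1:1000048-1000347 on the minus strand.
HES1: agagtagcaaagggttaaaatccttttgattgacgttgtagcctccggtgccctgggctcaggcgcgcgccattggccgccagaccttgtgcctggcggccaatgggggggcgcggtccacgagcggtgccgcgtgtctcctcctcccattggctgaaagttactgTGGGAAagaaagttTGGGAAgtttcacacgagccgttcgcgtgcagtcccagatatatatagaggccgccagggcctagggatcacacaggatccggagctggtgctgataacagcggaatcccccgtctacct
HES4: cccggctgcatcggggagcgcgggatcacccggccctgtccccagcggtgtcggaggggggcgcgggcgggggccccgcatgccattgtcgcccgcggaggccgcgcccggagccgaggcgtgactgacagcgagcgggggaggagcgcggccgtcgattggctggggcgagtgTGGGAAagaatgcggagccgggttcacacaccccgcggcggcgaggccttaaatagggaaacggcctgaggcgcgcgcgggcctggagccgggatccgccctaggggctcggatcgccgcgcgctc

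Counted from the RefSeq start, the core motif lay at bases -84 to -79 and -70 to -65 of HES1 and at -76 to -71 of HES4. The first HES1 match and the HES4 match also carry the longer form GTGGGAA, which contains the core. The longest run of letters that the HES1 and HES4 windows share is TGTGGGAAAGAA, found after the windows were read, at -86 to -75 in HES1 and -78 to -67 in HES4. Of 35116 promoter windows in the RefSeq table, 24.0% held the core motif, 6.25% the longer form and 8 windows (0.0228%) the shared run. The HES1 and HES4 windows, from which the run was taken, are among those 8 by construction. RBPJ has 5 annotated starts, and the window of the second held the core motif at -115 to -110, on the opposite strand, and at -72 to -67. Both RBPJ matches carry the longer form as well. The letters TGGGAA were not found in the windows of NOTCH1, NOTCH2, NOTCH3, JAG1, JAG2 or MAML1. Nor were they found in those of HES6 and NRARP, which are not members. The TEAD motif GGAATG, which 14.0% of all windows hold, was not found in any window of the 9 members. A match is a run of letters and not a measured binding site.

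**Figure D1:**
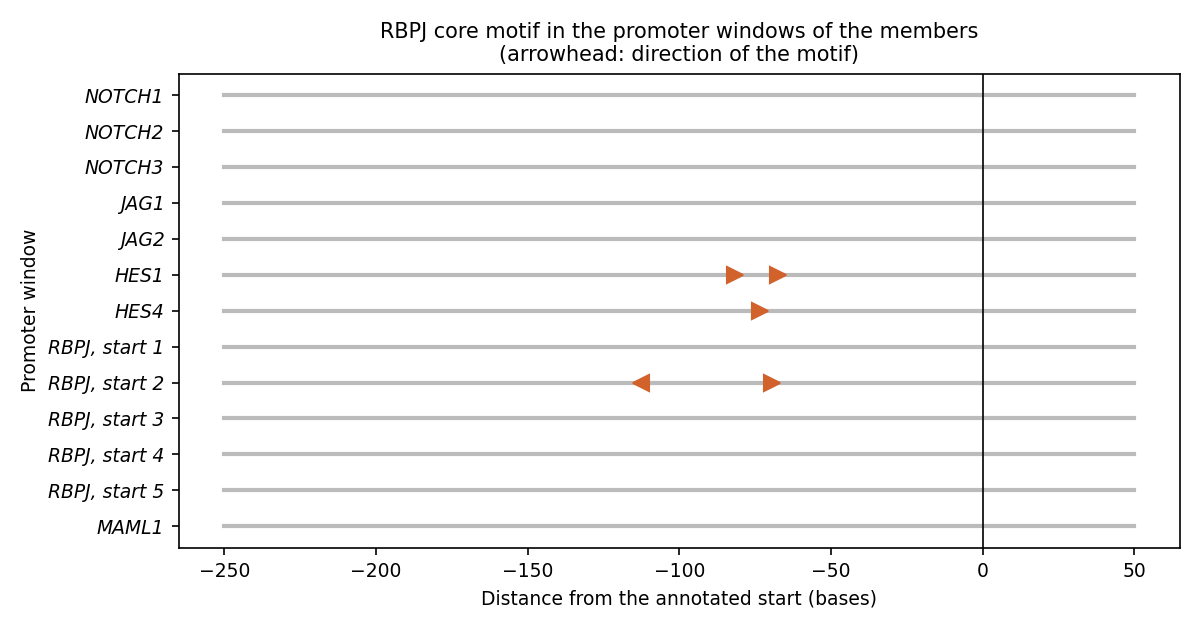
Position of the core RBPJ motif in the promoter windows of the members (x axis, bases from the RefSeq start), with 1 grey line per window and the arrowhead in the direction of the motif. Matches are present in HES1 (2), HES4 (1) and the second of the 5 RBPJ windows (2).

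Levels are in FPKM, which divides fragments by transcript length and by library total, as deposited by the authors. Sequencing depth is unknown, and the summed FPKM ran from 454889 to 527709. All 9 kidney carcinoma line markers were above 1 FPKM in every library. They summed to 4729 to 4947 FPKM in Vehicle and 3952 to 4210 FPKM in XMU_MP_1 libraries, most of it VIM. Single markers moved in either direction, with HAVCR1 at 40.4 to 49.8 and 11.3 to 14.4 FPKM and PAX8 at 113 to 116 and 122 to 133 FPKM. The endothelial markers CDH5 and VWF were at 0 or 0.01 FPKM and the leukocyte marker PTPRC at 0.18 to 0.45 FPKM. The 4 endothelial markers summed to 0.38 to 0.39 FPKM in Vehicle and 0.09 to 0.15 FPKM in XMU_MP_1 libraries. The 4 smooth muscle markers summed to 32.8 to 37.1 and 39.5 to 44.3 FPKM, nearly all of it ACTG2, with DES at 0 to 0.07 FPKM. Whether these markers of other cell types have a part in any result was not tested. In bulk RNA fewer cells of a type and less RNA per cell cannot be told apart. The 2 leukocyte markers analysed here summed to 31.5 to 33.4 and 31.4 to 32.4 FPKM, nearly all of it CD68. Vehicle replicate 2 and XMU_MP_1 replicate 3 each differed from the other libraries of their group, which were close to each other. For the 3950 genes at 20 FPKM or more, the SD of log2 differences was 0.0904 between Vehicle replicates 1 and 3, 0.0699 between XMU_MP_1 replicates 1 and 2, and 0.142 to 0.154 for the other pairs within a group. Among 943 tested genes with a transcript of at least 8000 nucleotides, the median log2 deviation from the group mean was 0.08 in Vehicle replicate 2 and -0.09 in XMU_MP_1 replicate 3. Among 1860 genes whose transcripts are all under 2000 nucleotides it was -0.09 and 0.07. This touches the members, whose longest transcripts run from 1040 nucleotides (HES4) to 11389 nucleotides (NOTCH2). In 6 of the 7 tested members Vehicle replicate 2 was the highest library of its group and XMU_MP_1 replicate 3 the lowest, a pattern seen in 29.4% of tested genes. HES4 had the opposite pattern, seen in 19.9%.

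In Vehicle libraries HES4 (mean 30.8 FPKM) and NOTCH2 (26.7 FPKM) were highest, and their ranges overlapped. RBPJ followed at 17.4 FPKM, then MAML1 at 8.76 and NOTCH1 at 8.33 FPKM, whose ranges overlapped as well. JAG1 (5.88 FPKM), HES1 (2.41 FPKM), HEY1 (0.993 FPKM), JAG2 (0.08 FPKM) and NOTCH3 (0.0233 FPKM) came next, each with libraries that did not overlap with its neighbour's in this order. With XMU_MP_1, HES4 stood alone at the top with 43.9 FPKM, NOTCH2 (19.1 FPKM) overlapped with RBPJ (17.9 FPKM), and JAG1 (2.81 FPKM) overlapped with HES1 (2.66 FPKM). Among the genes tested, HES4 had a higher mean level than 79.6%, NOTCH2 than 68.1% and HES1 than 11.3%.

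**Figure D2:**
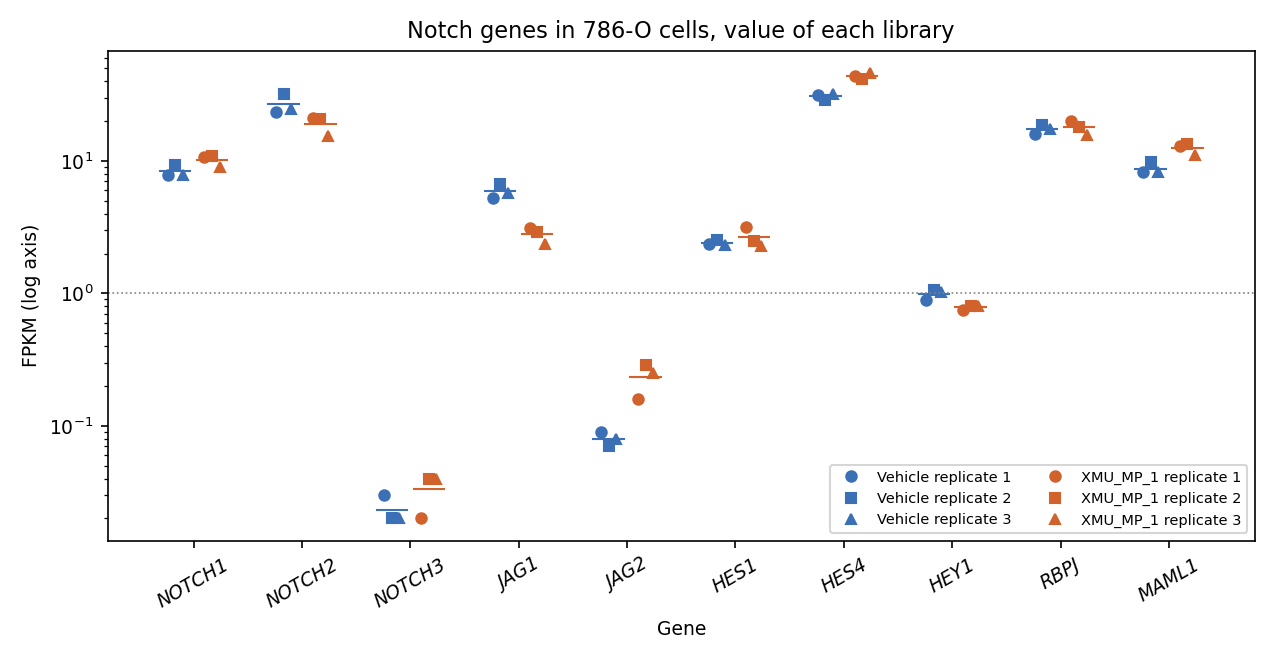
FPKM (y axis, log scale) of the 10 members in each library, with Vehicle in blue, XMU_MP_1 in orange, 1 symbol per replicate and a bar at the group mean. The dotted line marks 1 FPKM, under which HEY1, JAG2 and NOTCH3 have their mean over all libraries. JAG1 is lower and HES4 and MAML1 are higher in all 3 XMU_MP_1 libraries.

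With XMU_MP_1, the ligand gene JAG1 fell 2.10-fold and the receptor gene NOTCH2 fell 1.40-fold, while HES4 and MAML1 each rose 1.43-fold and NOTCH1 rose 1.23-fold. RBPJ and HES1 did not pass the test. Genes were tested with limma on log2(FPKM + 1) where the mean over the 6 libraries was at least 1 FPKM, and changes called log2 are XMU_MP_1 minus Vehicle on that scale, which understates the change of low genes. Of the 10 members 7 were tested, of which 3 were higher and 2 lower at a Benjamini-Hochberg adjusted p below 0.05. Over all 11151 tested genes 32.0% were higher and 25.9% lower, 57.9% in all, so a call on 5 of 7 members does not set them apart. The median log2 change was 0.10 for the 7 members and 0.04 for all tested genes. The groups did not overlap in 4 of the 7, against 63.7% of tested genes.

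NOTCH1, a receptor gene on the minus strand of chromosome 9 (136494433 to 136545786, GENCODE 29 on GRCh38, protein-coding), measured 7.81, 9.32 and 7.87 FPKM in Vehicle replicates 1 to 3 and 10.76, 10.95 and 9.01 FPKM in XMU_MP_1 replicates 1 to 3. XMU_MP_1 replicate 3 lay below Vehicle replicate 2, so the groups overlapped. The means were 8.33 ± 0.855 and 10.2 ± 1.07 FPKM (SD, n = 3), or 0.27 ± 0.088 in log2 (change ± SE, limma adjusted p = 0.0229). This call did not hold in 7 of 17 alternative settings, among them each leaving out of Vehicle replicate 1 or 3 or XMU_MP_1 replicate 1 or 2 (limma adjusted p = 0.0794 to 0.0833). Without Vehicle replicate 2 and XMU_MP_1 replicate 3 the log2 change was 0.42 (limma adjusted p = 9.88e-05). An annotated antisense gene, not analysed here, overlaps NOTCH1, and another overlaps JAG1. Whether counting used strand is not given, so reads of such pairs may not have been told apart.

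NOTCH2 encodes a receptor that was the most abundant of the family in these cells. The gene lies on the minus strand of chromosome 1 (119911553 to 120069626, protein-coding). It measured 23.56, 32.15 and 24.49 FPKM in Vehicle and 21.10, 20.63 and 15.46 FPKM in XMU_MP_1 libraries. All XMU_MP_1 libraries were below all Vehicle libraries, but Vehicle replicate 2 was far above and XMU_MP_1 replicate 3 far below the others of their groups. The means were 26.7 ± 4.71 and 19.1 ± 3.13 FPKM, for a change of -0.47 ± 0.133 on the log2 scale (limma adjusted p = 0.0131). Without those libraries the log2 change was -0.19 (limma adjusted p = 0.00403), and with the trend on transcript length removed, a setting chosen after the data were seen, it was -0.39 (limma adjusted p = 0.00618).

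The partial copies NOTCH2NLA, NOTCH2NLB and NOTCH2NLC share sequence with NOTCH2, and the treatment of reads they share is not given, so values of NOTCH2 and its copies are uncertain. NOTCH2NLA measured 0.69 to 1.36 FPKM in Vehicle and 0.39 to 0.47 FPKM in XMU_MP_1 libraries and was too low to be tested. NOTCH2NLB (means 3.93 and 3.95 FPKM) and NOTCH2NLC (3.33 and 2.63 FPKM) did not pass.

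NOTCH3, a receptor gene on the minus strand of chromosome 19 (15159038 to 15200981), was close to absent at 0.02 to 0.03 FPKM in Vehicle and 0.02 to 0.04 FPKM in XMU_MP_1 libraries and was not tested. The fourth receptor gene, NOTCH4, was at 0.01 to 0.03 FPKM. Receptor transcripts were thus nearly all NOTCH1 and NOTCH2, and their balance moved. NOTCH2 made up 75.0%, 77.5% and 75.6% of the summed FPKM of NOTCH1, NOTCH2 and NOTCH3 in Vehicle libraries and 66.2%, 65.2% and 63.1% in XMU_MP_1 libraries. The groups did not overlap and the mean share was 11.2 points lower with XMU_MP_1, from 76.1% ± 1.28 to 64.8% ± 1.59. The exact two-sided permutation test gave p = 0.1, the smallest p that 3 libraries against 3 allow. The difference was -10.3 to -11.9 points with any single library left out. NOTCH1 held 23.9% ± 1.26 and 35.0% ± 1.55 (exact permutation p = 0.1). The share of NOTCH3 was 0.0685% ± 0.0244 and 0.117% ± 0.0508 (exact permutation p = 0.2).

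**Figure D3:**
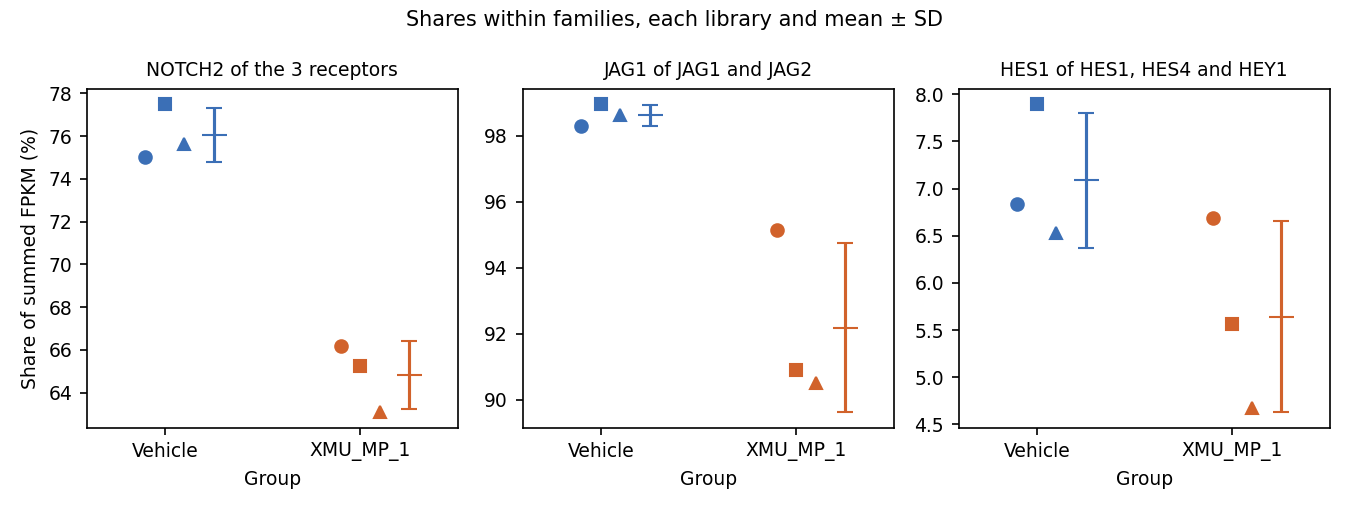
Share of summed FPKM (y axes, %, not starting at 0) taken by NOTCH2 among the 3 receptors, by JAG1 among the 2 Jagged ligands and by HES1 among HES1, HES4 and HEY1, with 1 symbol per library and the mean ± SD beside each group (n = 3). The NOTCH2 share is 63.1% to 66.2% with XMU_MP_1 and 75.0% to 77.5% in Vehicle, and the HES1 shares of the groups overlap.

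JAG1, the only ligand gene at a substantial level, had the largest change of the 7 tested members. It lies on the minus strand of chromosome 20 (10637684 to 10673999, protein-coding). Its values were 5.26, 6.65 and 5.74 FPKM in Vehicle and 3.14, 2.90 and 2.38 FPKM in XMU_MP_1 libraries, with a wide gap between the groups. The means were 5.88 ± 0.706 and 2.81 ± 0.389 FPKM, for a change of -0.85 ± 0.097 on the log2 scale (limma adjusted p = 2.83e-05). Its change was larger than that of 94.8% of tested genes, and it passed in all 16 alternative settings that tested it (log2 change -1.04 to -0.69).

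JAG2, the other Jagged gene, on the minus strand of chromosome 14 (105140981 to 105168824), went the other way at a level near the bottom of the scale. It measured 0.09, 0.07 and 0.08 FPKM in Vehicle and 0.16, 0.29 and 0.25 FPKM in XMU_MP_1 libraries, without overlap. It was too low for the main test. With no filter on low values, limma gave a log2 change of 0.19 (adjusted p = 0.00778), and at these levels a few reads decide a value. JAG1 took 98.6% ± 0.32 of the summed Jagged FPKM in Vehicle and 92.2% ± 2.58 with XMU_MP_1 (exact permutation p = 0.1), so it remained the main Jagged transcript.

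Delta-type ligand genes were scarce. DLL1 was listed at 0 in 5 libraries and at 0.01 FPKM in the other, DLL4 at 0 to 0.06 FPKM, and DLL3, which encodes a ligand that does not activate the receptor in trans, at 0.23 to 0.60 FPKM. DLK1 was at 0 to 0.01 FPKM. The Delta-like gene DLK2 was the only one of these 6 receptor and ligand genes beside the members to be tested, at 1.30 ± 0.112 and 1.55 ± 0.219 FPKM (log2 change 0.15, limma adjusted p = 0.156). It passed without XMU_MP_1 replicate 1 (0.0493).

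RBPJ, the factor through which all 4 receptors act on DNA, lies on the plus strand of chromosome 4 (26163455 to 26435131, protein-coding). Its values were 16.12, 18.59 and 17.35 FPKM in Vehicle and 19.98, 18.13 and 15.73 FPKM in XMU_MP_1 libraries, and XMU_MP_1 libraries held both the highest and the lowest. The means were 17.4 ± 1.24 and 17.9 ± 2.13 FPKM, a log2 change of 0.04 with a 95% interval of -0.14 to 0.23 (limma adjusted p = 0.692). Without Vehicle replicate 2 and XMU_MP_1 replicate 3 it passed as higher (log2 change 0.18, limma adjusted p = 0.026).

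MAML1 encodes a coactivator that binds the complex of RBPJ and the Notch intracellular domain, and lies on the plus strand of chromosome 5 (179732850 to 179777286, protein-coding). It measured 8.24, 9.78 and 8.26 FPKM in Vehicle and 13.00, 13.40 and 11.11 FPKM in XMU_MP_1 libraries, with no overlap. The means were 8.76 ± 0.883 and 12.5 ± 1.22 FPKM, for a change of 0.47 ± 0.085 on the log2 scale (limma adjusted p = 8.03e-04). It passed in all 17 alternative settings. Its relatives did not do the same. MAML2, a second Mastermind gene, measured 4.96 ± 0.528 and 2.45 ± 0.398 FPKM, 2.03-fold lower (log2 change -0.79, limma adjusted p = 5.50e-05), and MAML3 was at 0.03 to 0.15 FPKM.

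HES1, the effector gene most used as a readout of Notch, was low in both groups. It lies on the plus strand of chromosome 3 (194136145 to 194138732, protein-coding). It measured 2.37, 2.55 and 2.32 FPKM in Vehicle and 3.19, 2.50 and 2.30 FPKM in XMU_MP_1 libraries. XMU_MP_1 replicate 1 was above the others, and the other XMU_MP_1 libraries lay within or just below the Vehicle range. The means were 2.41 ± 0.121 and 2.66 ± 0.467 FPKM, a log2 change of 0.10 with a 95% interval of -0.11 to 0.30 (limma adjusted p = 0.398). Without XMU_MP_1 replicate 1 the log2 change was -0.01. HES1 did not pass in any of the 16 alternative settings that tested it.

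HES4, a family member with no mouse counterpart, was far more abundant. It lies on the minus strand of chromosome 1 (998962 to 1000172, protein-coding). It measured 31.39, 28.69 and 32.19 FPKM in Vehicle and 43.75, 41.67 and 46.15 FPKM in XMU_MP_1 libraries, all XMU_MP_1 libraries above all Vehicle libraries. The means were 30.8 ± 1.83 and 43.9 ± 2.24 FPKM, for a change of 0.50 ± 0.061 on the log2 scale (limma adjusted p = 4.70e-05). HES4 passed in all 17 alternative settings (log2 change 0.41 to 0.54). HES4 and HES1 thus shared an RBPJ motif at a like distance from the RefSeq start, as printed above, while HES4 passed and HES1 did not. That alone does not show a difference between them. The GENCODE start of HES4, base 1000172, lies before its RefSeq start, and the HES4 match lies across it. The like distance therefore holds for the RefSeq starts only. HES1 took 7.09% ± 0.714 of the summed FPKM of HES1, HES4 and HEY1 in Vehicle and 5.64% ± 1.01 with XMU_MP_1, with overlap (exact permutation p = 0.2).

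HEY1, a related repressor gene on the minus strand of chromosome 8 (79764010 to 79767863), had a mean of 0.89 FPKM over all libraries and missed the limit of 1 FPKM. It measured 0.89, 1.07 and 1.02 FPKM in Vehicle and 0.75, 0.80 and 0.81 FPKM in XMU_MP_1 libraries, which were the lower group without overlap. With no filter on low values it did not pass (log2 change -0.16, limma adjusted p = 0.0718).

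Among other genes of the HES and HEY family and their relatives, 3 of 6 listed were tested, of which 1 was higher and 2 were lower. Over all tested genes 32.0% were higher and 25.9% lower, and 3 genes are too few to set this list apart. HES6, whose product is known to oppose HES1, rose 2.93-fold. Its values were 4.74, 5.54 and 4.75 FPKM in Vehicle and 13.75, 14.72 and 15.54 FPKM in XMU_MP_1 libraries (log2 change 1.38, limma adjusted p = 1.20e-07). BHLHE41 and BHLHE40, repressors that also act in the circadian clock, both fell. BHLHE41 went from 19.2 ± 1.01 to 4.04 ± 0.187 FPKM, 4.75-fold lower (limma adjusted p = 3.50e-09), and BHLHE40 from 67.5 ± 2.12 to 46.9 ± 3.21 FPKM (limma adjusted p = 3.20e-05). HEY2 was at 0 to 0.04 FPKM, HES2 at 0.05 to 0.15 FPKM and HES7 at 0.12 to 0.48 FPKM. HES3, HES5, HEYL and HELT were not analysed here.

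**Figure D4:**
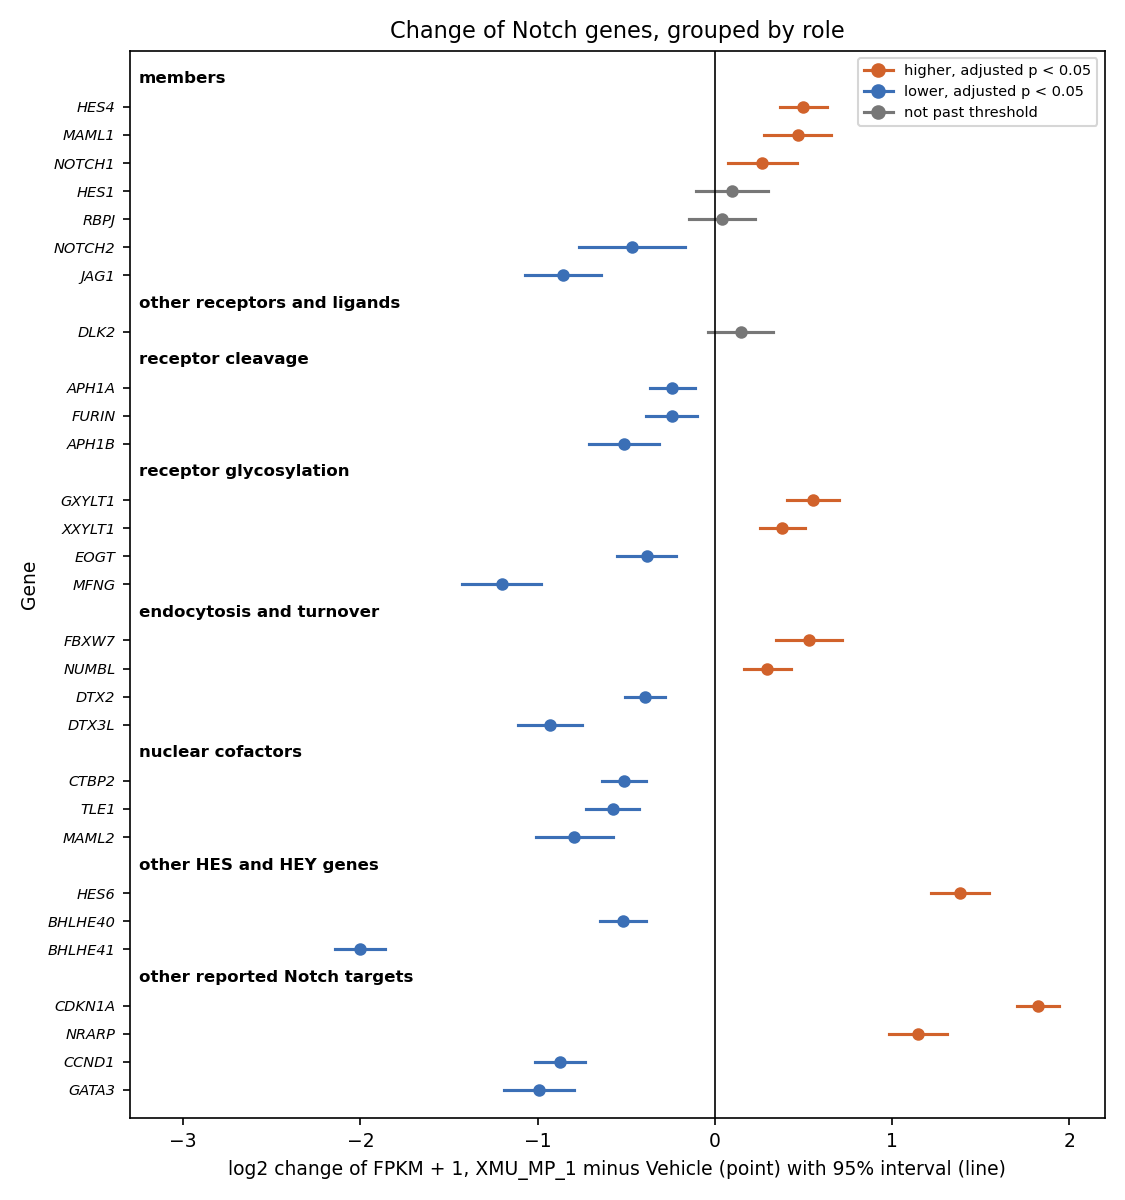
Log2 change of FPKM + 1, XMU_MP_1 minus Vehicle (x axis), of the 7 tested members and of up to 4 tested genes per list with the smallest adjusted p, less those not reported here, as points with 95% intervals from limma. Orange points passed as higher, blue points as lower and grey points did not pass. HES6, NRARP and CDKN1A lie to the right, BHLHE41, MFNG and GATA3 to the left.

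The other genes of the pathway were read from 7 lists chosen by role. Of 81 genes 76 are listed and 58 were tested, and 14 of these were higher and 27 lower with XMU_MP_1. That is 70.7% called, against 57.9% of all tested genes, and 3 of the 58 reached the limit of 1 FPKM through the mean of 1 group only. The median log2 change was -0.12, against 0.04 for all tested genes, and neither value shows the lists to stand apart.

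Most nuclear cofactors that changed fell. Of 16 tested, 9 were lower, 3 higher and 4 did not pass, with a median log2 change of -0.25. Over all tested genes 25.9% were lower and 32.0% higher. NCOR1, a corepressor gene, fell 1.26-fold (limma adjusted p = 0.00294). Of the Groucho-type corepressors that HES proteins bind, TLE1 fell 1.53-fold (limma adjusted p = 4.09e-05), TLE4 1.36-fold and TLE3 1.28-fold. Apart from these, the short TLE family member TLE5 was the most abundant TLE gene at 163 ± 2.88 FPKM in Vehicle. It did not pass (limma adjusted p = 0.0771), though it did without XMU_MP_1 replicate 3 (0.00334) and with the replicate block (0.0301). CTBP2, another corepressor gene, measured 41.7 ± 1.65 and 28.9 ± 1.31 FPKM, 1.44-fold lower (limma adjusted p = 1.89e-05) and CTBP1 fell 1.15-fold. The acetyltransferase gene KAT2A fell 1.28-fold. The 3 that rose were the corepressor gene CIR1 (1.35-fold), the histone demethylase gene KDM5A (1.40-fold) and the acetyltransferase gene EP300 (1.24-fold). The EP300 call was lost without Vehicle replicate 1 or 3 or XMU_MP_1 replicate 1 or 2 (limma adjusted p = 0.0942 to 0.110). With Vehicle replicate 2 and XMU_MP_1 replicate 3 left out the log2 change of EP300 was 0.48 instead of 0.29, and that of NCOR1 was -0.21 instead of -0.31. SPEN, whose product is a large corepressor bound to RBPJ, measured 7.22 ± 0.993 and 6.62 ± 0.813 FPKM (limma adjusted p = 0.381).

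All 9 genes of receptor cleavage were tested, and 5 were lower, 1 was higher and 3 did not pass. That is 66.7% called, against 57.9% of all tested genes, where 25.9% were lower and 32.0% higher. Of the γ-secretase subunit genes, APH1B went from 2.93 ± 0.361 to 1.75 ± 0.218 FPKM, 1.67-fold lower (limma adjusted p = 5.85e-04), and APH1A fell 1.18-fold. PSEN2 fell 1.17-fold, a call that was lost without Vehicle replicate 1 or 3 or XMU_MP_1 replicate 1 or 2 (limma adjusted p = 0.0607 to 0.144). The subunit genes NCSTN (means 53.8 and 55.7 FPKM) and PSENEN (50.3 and 52.7 FPKM) did not pass (limma adjusted p = 0.487 and 0.616). Of the proteases that cut the receptor outside the membrane, ADAM10 fell 1.21-fold (limma adjusted p = 0.0183, but 0.0535 without Vehicle replicate 2) and ADAM17 did not pass (0.519). The log2 change of ADAM10 was -0.27, but -0.16 without XMU_MP_1 replicate 3 and -0.13 with Vehicle replicate 2 left out as well. FURIN, which cuts the receptor on its way to the surface, fell 1.20-fold (limma adjusted p = 0.00878).

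Of 9 tested genes of receptor glycosylation 2 were higher, 3 were lower and 4 did not pass. These 55.6% called are near the 57.9% of all tested genes. MFNG, the manic fringe gene, whose product alters which ligand a receptor answers to, fell 4.28-fold. It measured 3.09, 2.57 and 2.69 FPKM in Vehicle and 0.68, 0.85 and 0.42 FPKM in XMU_MP_1 libraries (log2 change -1.20, limma adjusted p = 3.26e-06), and passed the limit of 1 FPKM through Vehicle alone. LFNG, the most abundant fringe gene, measured 48.6 ± 2.60 and 44.3 ± 1.49 FPKM and did not pass (limma adjusted p = 0.0633). It passed as lower in 5 settings, among them the replicate block (0.0314) and the fit without Vehicle replicate 1 (0.0444). RFNG fell 1.19-fold, a call lost without Vehicle replicate 1 or 2 or XMU_MP_1 replicate 1 or 2 (limma adjusted p = 0.0929 to 0.132). EOGT, which encodes a GlcNAc transferase acting on EGF repeats, fell 1.34-fold. The xylosyltransferase genes GXYLT1 and XXYLT1 rose 1.61-fold and 1.32-fold (limma adjusted p = 3.93e-05 and 2.45e-04). POFUT1, which adds the fucose that fringe proteins extend, was level at 32.2 ± 1.43 and 32.2 ± 2.42 FPKM.

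In the list of endocytosis and turnover 11 of 15 genes were tested, and 4 were higher and 2 lower. These 54.5% called are near the 57.9% of all tested genes. FBXW7, which encodes the ubiquitin ligase subunit that marks the Notch intracellular domain for degradation, measured 2.33 ± 0.27 and 3.82 ± 0.372 FPKM, 1.64-fold higher (limma adjusted p = 3.16e-04). NUMBL, a relative of the Notch inhibitor NUMB, rose 1.25-fold, whereas NUMB measured 27.1 ± 1.23 and 28.4 ± 1.08 FPKM and did not pass (limma adjusted p = 0.357). With Vehicle replicate 2 and XMU_MP_1 replicate 3 left out NUMB passed as higher (log2 change 0.13, limma adjusted p = 0.0208). The Deltex genes DTX3L and DTX2, which encode ubiquitin ligases, fell 2.10-fold and 1.33-fold (limma adjusted p = 4.30e-06 and 7.39e-05). MIB2, a ligase gene for ligand uptake, and AAK1, a kinase gene of endocytosis, also passed as higher (limma adjusted p = 0.0256 and 0.0498). MIB2 lost the call without Vehicle replicate 1 or 3 or XMU_MP_1 replicate 1 or 3 (0.0541 to 0.101), and AAK1 without Vehicle replicate 1 or 3 or XMU_MP_1 replicate 1 or 2 (0.113 to 0.164). The number of genes higher on this list was 8 with Vehicle replicate 2 and XMU_MP_1 replicate 3 left out together. It was 2 to 4 in the other alternative settings. The share of all tested genes called in the fit that gave 8 is not given here.

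On a list of other reported Notch targets 3 of 9 tested genes were higher and 6 lower, against 32.0% and 25.9% of all tested genes, and 2 of the 9 reached the limit of 1 FPKM through 1 group only. NRARP, a feedback inhibitor gene, rose 3.90-fold, from 0.83, 0.64 and 0.69 FPKM in Vehicle to 2.85, 2.62 and 2.95 FPKM in XMU_MP_1 libraries (log2 change 1.15, limma adjusted p = 5.04e-07). It reached the limit of 1 FPKM through the XMU_MP_1 group alone. CDKN1A, the p21 gene, rose 3.70-fold and the cyclin gene CCND3 1.32-fold. CCND1, the cyclin D1 gene, measured 178 ± 11.8 and 96.5 ± 4.83 FPKM, 1.84-fold lower (limma adjusted p = 1.03e-06), and MYC fell 1.20-fold. GATA3, a transcription factor gene, fell 3.01-fold from 2.95 ± 0.452 to 0.98 ± 0.0872 FPKM and passed the limit through Vehicle alone. SNAI2, SNAI1 and SOX9, also transcription factor genes, fell 1.68-fold, 1.42-fold and 1.34-fold. DTX1 was listed at 0 in 5 libraries, and PDGFRB was at 0.03 to 0.23 FPKM. Many signals besides Notch are known to act on these genes.

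The 5 genes most like HES1 over the 6 libraries, by Pearson's r of log2(FPKM + 1) among 8347 genes whose mean was 5 FPKM or more, were MICB (0.955), SUMF1 (0.954), SH3GLB1 (0.951), ALG2 (0.949) and USP33 (0.948). Only 18 genes reached 0.9. For the members the value was 0.85 for RBPJ, 0.68 for NOTCH1, 0.59 for MAML1, 0.31 for HES4, 0.09 for NOTCH2 and -0.20 for JAG1. These values describe 6 libraries that share the group difference and the side of Vehicle replicate 2 and XMU_MP_1 replicate 3.

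**Figure D5:**
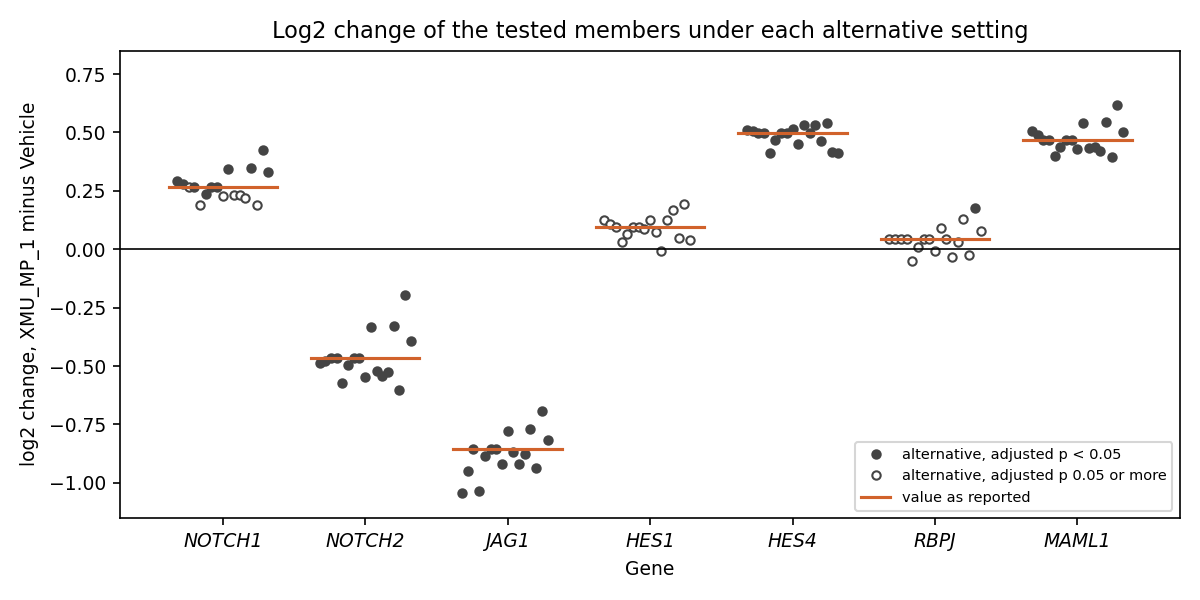
Log2 change, XMU_MP_1 minus Vehicle (y axis), of the 7 tested members under each alternative setting (points, filled where limma's adjusted p was below 0.05) and as reported (bar). NOTCH2, JAG1, HES4 and MAML1 are filled throughout, NOTCH1 in 10 of 17 settings, RBPJ in 1 and HES1 in 0 of 16.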

How the data were processed

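The authors deposited 1 FPKM table per library, to 2 decimals, per the file headers. Libraries were made from Trizol-extracted RNA with BGISEQ-500 protocols, per the labels' protocols, and GRCh38 was the build, per the submitters' processing notes. Not given in the sources used here are the aligner, quantifier, annotation and filters. FPKM is relative to a library's own total, so a change in very abundant genes shifts all others. Read counts were not recovered from the rounded FPKM and no count model was used. The members, lists and alternatives were chosen with earlier results of these data known.

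The 11151 genes whose mean was 1 FPKM or more were tested in R 4.3.3 with limma 3.58.1 and statmod 1.5.0. The model of log2(FPKM + 1) held the group alone, and variances were moderated robustly with a trend on the mean. P-values were two-sided and Benjamini-Hochberg adjusted over all tested genes. The scripts were tested on simulated data. For shares an exact permutation test was used, two-sided. The rule for named genes takes the 10 members, up to 4 genes per list with the smallest adjusted p, 8 further Notch genes whatever their level, and the 5 genes most like HES1. Other genes named were chosen after their values were seen. A few genes within this rule are not reported here. Positions and transcript lengths are those of GENCODE 29, matched by symbol, and promoters are RefSeq's on GRCh38.p14. Alternatives changed the pseudocount, filter, scaling, moderation, replicate block and libraries used.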

Additional observations from a re-analysis of the deposited data

How the results depend on the processing

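JAG1, NOTCH2, HES4 and MAML1 kept their direction and passed in each of the 17 settings that tested them (16 for JAG1). NOTCH1 kept its direction in 17 settings and passed in 10. It did not pass with no filter (adjusted p = 0.0538), with summed FPKM made equal (0.187), with the close pairs averaged (0.169) or without any 1 of 4 libraries. RBPJ, never called in the reported fit, turned to a log2 change of -0.0508 with summed FPKM made equal and -0.0252 with the close pairs averaged, and ran from -0.0347 to 0.129 with 1 library left out. HES1 ran from -0.00567 to 0.167 with 1 library left out. A limit of 5 FPKM left 1 member lower, as JAG1 was then not tested, and 9 other pathway genes higher. Of the genes lost from that count, 4 were no longer tested and AAK1 was tested and did not pass (adjusted p = 0.0516). That limit left 8347 genes tested, and 57.5% of the calls over all of them were higher. The share of them called is not given here, so the counts at this limit do not set the Notch genes apart. With summed FPKM made equal 2252 of all tested genes were higher and 3448 lower, so that 39.5% of calls were higher, against 55.3% as reported. MIB2, AAK1 and EP300 then lost their calls (adjusted p = 0.265, 0.446 and 0.186), the members' counts were 2 and 2, and the median log2 change over all tested genes was -0.05 instead of 0.04. A pseudocount of 0.1 took MFNG to -1.98, NRARP to 1.83 and GATA3 to -1.49. With Vehicle replicate 2 and XMU_MP_1 replicate 3 both left out, 4 members were higher and 2 lower, and 20 other pathway genes were higher and 29 lower. In that fit 55.9% of the calls over all 11151 tested genes were higher. The share of all tested genes called in it is not given here, so these counts do not set the Notch genes apart. Of named genes not called in the reported fit, NUMB turned to -0.0316 with summed FPKM made equal. ADAM17 turned to 0.0903, SPEN to 0.0774 and POFUT1 to 0.0929 with both of those libraries out, and POFUT1 to 0.0253 with the transcript length trend removed. With 1 library left out ADAM17 ran from -0.122 to 0.0191 and POFUT1 from -0.0441 to 0.0584.

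No label says whether replicate numbers pair the libraries. Deviations from the group means correlated at -0.20, 0.39 and 0.24 for numbers 1 to 3, and at -0.46 to 0.34 for unlike numbers. Deviations within a group of 3 depend on each other, so these values do not settle whether there was a pairing. With the replicate block the members' counts stayed at 3 and 2, with 3956 higher and 3093 lower over all tested genes. Depth is unknown, so the precision of JAG2 and NOTCH3 cannot be given.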
